A study of Mus musculus with 3 samples.

Results

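The complement system is a set of plasma proteins that tag and lyse microbes and damaged cells. Its classical, lectin and alternative pathways meet at the cleavage of C3, which releases the small peptide C3a and deposits C3b on nearby surfaces, and they end in C5a and the membrane attack complex. Cells exposed to plasma protect themselves with regulators that take apart C3b-containing enzymes or block the lytic pore, and glomerular endothelium is a main site of injury in thrombotic microangiopathy when this control fails. Of 9 complement genes chosen by name, by a rule that uses no measured value though earlier results of these data were known, 8 were measured here, each by 1 probe set, among 19938 genes with a probe set that names a single gene. They were the membrane regulators Cr1l, Cd55, Cd46 and Cd59a, the plasma regulators Serping1 and Cfi, and the receptors C3ar1 and C5ar1. C3 itself is not analysed here.

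The cells came from adult mice carrying the transgene Tg(TIE2GFP)287Sato on a mixed background, primarily CD-1, in which the promoter of Tek (Tie2) drives green fluorescent protein. That promoter marks endothelium, and it can also be active in some blood cells. Glomeruli were sieved from kidney cortex and digested with collagenase and trypsin, and cells were sorted by fluorescence. There were 3 Affymetrix Mouse Gene 1.0 ST arrays, replicates 1, 3 and 5, each from 1 kidney, with no treatment and no second group. The study describes its samples as independent biological ones, and the labels do not say whether the kidneys came from separate animals. P-values rest on the spread between these arrays and on limma's variance prior, and for a probe set with the same value on all arrays on that prior alone. Values are log2 signals per probe set, and levels are means ± SD (n = 3). Each mean was set against 100, or 6.64 on the log2 scale, the number that the study used as its filter on raw signals. The deposited values may sit on another scale than those raw signals, so a call below 100 here need not be one below the study's filter. Calls are from limma with Benjamini-Hochberg adjustment over 21789 probe sets. A second and lower reference came from 1035 probe sets of olfactory receptor genes, which kidney endothelium is not known to use. It is the value that 95% of them do not exceed, 4.85 on the log2 scale. Probe sets differ in brightness for equal amounts of RNA, so the levels of different genes are not ranked.

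The sorted cells carried the signals of endothelium. All 10 endothelial markers were called above 100, as were 15.8% of all probe sets. These markers included Tek at 10.65 ± 0.43 and the junction molecule gene Pecam1 at 10.26 ± 0.21. All 12 leukocyte markers were called below 100, as were 72.5% of all probe sets. Ptprc, the common leukocyte antigen, was at 4.77 ± 0.18 and the phagocyte gene Cd68 at 5.29 ± 0.03. All measured markers of mesangium and smooth muscle (6), of the proximal tubule (7), of the distal nephron (5) and of hepatocytes (5) were below as well. Against the lower reference, 3 of the 12 leukocyte markers (Cd14, Cd68 and Cx3cr1) were called above, as were Slc34a1 of the proximal tubule, Aqp2 of the distal nephron and Apoa1 of hepatocytes. The share called above that reference over all probe sets was 44.4%. The call of Cd14 below 100 was lost with the variance prior over all probe sets (adjusted p = 0.0842 by limma). The first genes of those lists were Pdgfrb at 4.22 ± 0.25 and Itga8 at 5.26 ± 0.72 for mesangium, Slc34a1 at 5.37 and Lrp2 at 4.33 for proximal tubule, Umod at 5.15 and Slc12a1 at 3.56 for distal nephron, and Alb at 3.43 and Ttr at 4.43 for hepatocytes. Of 5 podocyte markers 4 were below, with Nphs1 at 5.47, and Podxl, which endothelium also expresses, was above at 9.86 ± 0.08. Nphs1 and Wt1 were, like Podxl, called above the lower reference (adjusted p = 0.00949 and 0.0375 by limma). A second probe set of Nphs1, at 4.80, was called neither there. Tek, Pecam1 and 6 more of the endothelial markers had their lowest value on replicate 3, and the summed linear signal of that list was 18210, 11913 and 20686 on replicates 1, 3 and 5.

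Of the 8 complement genes, 1 was called above 100, 5 below and 2 neither. Over all probe sets, 15.8% were called above, 72.5% below and 11.6% neither, so the shares of the complement genes lay near those of the whole array. Their median level was 4.77, against 5.04 over all probe sets. The gene above was the membrane regulator Cr1l. Those below were Cd55, Cd46, Cfi, C3ar1 and C5ar1. Cd59a and Serping1 were called neither, with means near 100 and arrays on both sides of it.

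**Figure D1:**
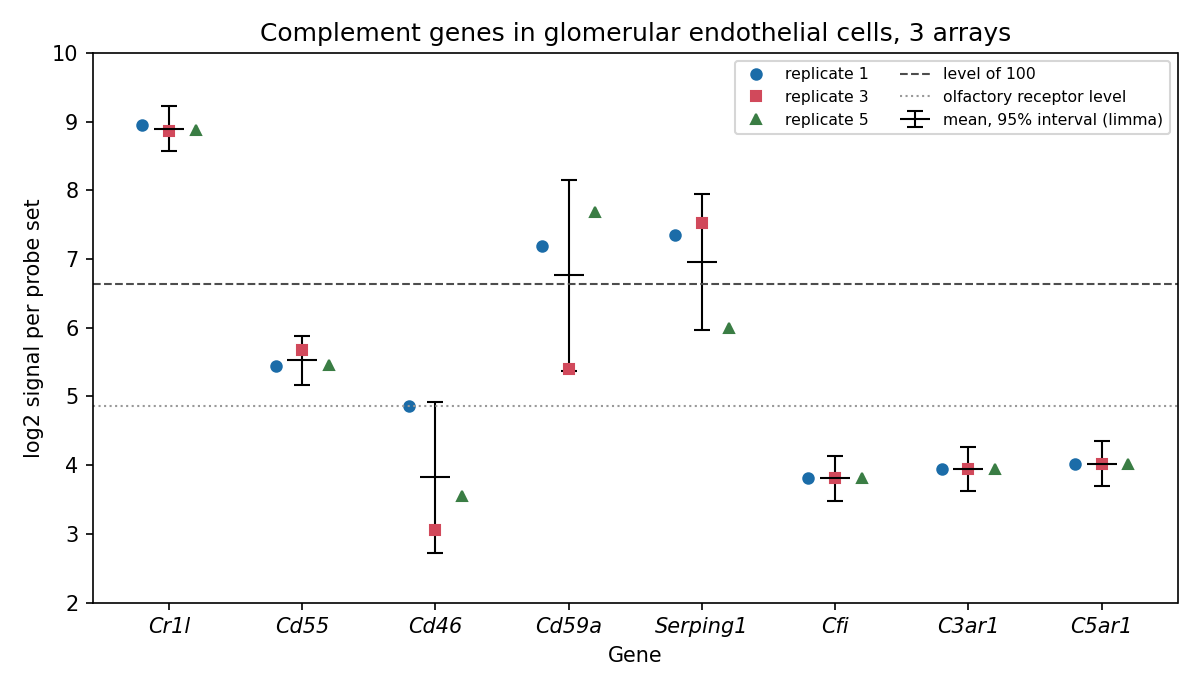
log2 signal (vertical axis) of the 8 complement genes (horizontal axis) on replicates 1, 3 and 5 (points), with the mean and the 95% interval of limma's moderated fit (bars); the dashed line is the level of 100 and the dotted line the olfactory receptor level. All 3 points of Cr1l lie above the dashed line, those of Cd59a and Serping1 lie on both sides of it, and those of the other genes lie below it.

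Many regulators of the C3 step share complement control protein modules, and many of the genes for these lie in clusters on mouse chromosome 1. In the RefSeq annotation of GRCm38.p6, Cr1l lies between Cd46 and Cr2, and the annotated spans of Cr1l and Cd46 overlap at their ends. Cd55 lies next to its paralog Cd55b. The sequences around the starts of Cr1l and Cd46 are shown because these neighbours were called on opposite sides of 100, and those of Cd55 and Cd59a because they are the other membrane regulators measured. Each runs 5′ to 3′ on the gene's strand, from 250 bases before to 50 after the annotated start, and capitals mark CG dinucleotides. They are taken from RefSeq on GRCm38.p6, at chr1:195131521-195131820 (minus strand) for Cr1l, chr1:195092199-195092498 (minus) for Cd46, chr1:130462695-130462994 (minus) for Cd55 and chr2:104095551-104095850 (plus) for Cd59a.
Cr1l: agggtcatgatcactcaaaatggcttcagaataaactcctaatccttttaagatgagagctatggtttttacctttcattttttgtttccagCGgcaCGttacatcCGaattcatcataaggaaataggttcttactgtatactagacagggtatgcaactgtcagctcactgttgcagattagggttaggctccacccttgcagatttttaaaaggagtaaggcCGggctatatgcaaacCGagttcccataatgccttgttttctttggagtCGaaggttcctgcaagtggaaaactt
Cd46: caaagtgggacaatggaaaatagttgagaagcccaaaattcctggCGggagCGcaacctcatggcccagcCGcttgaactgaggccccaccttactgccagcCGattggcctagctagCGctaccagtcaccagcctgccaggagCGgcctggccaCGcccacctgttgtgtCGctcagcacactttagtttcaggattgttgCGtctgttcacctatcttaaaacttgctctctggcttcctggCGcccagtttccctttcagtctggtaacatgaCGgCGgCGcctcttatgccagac
Cd55: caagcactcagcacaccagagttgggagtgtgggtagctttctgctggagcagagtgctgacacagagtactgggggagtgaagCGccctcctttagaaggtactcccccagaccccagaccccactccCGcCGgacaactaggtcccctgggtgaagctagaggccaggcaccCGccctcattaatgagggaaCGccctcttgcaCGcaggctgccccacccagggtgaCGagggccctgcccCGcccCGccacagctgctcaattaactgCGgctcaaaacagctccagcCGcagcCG
Cd59a: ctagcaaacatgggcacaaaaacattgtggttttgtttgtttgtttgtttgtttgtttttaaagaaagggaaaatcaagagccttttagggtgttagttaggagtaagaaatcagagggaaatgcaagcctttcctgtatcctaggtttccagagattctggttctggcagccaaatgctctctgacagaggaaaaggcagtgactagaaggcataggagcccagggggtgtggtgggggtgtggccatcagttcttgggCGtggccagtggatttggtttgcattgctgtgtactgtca
The sequence of Cr1l held 6 CG dinucleotides, that of Cd46 13, that of Cd55 12 and that of Cd59a 1. The median over 32851 promoters of the same length was 7. Those of C3ar1 and C5ar1, which are not shown, held 5 and 3. The letters GGGCGG of the Sp1-type GC box, searched on both strands, were found 2 times in Cd55 and not in the other 3 sequences. Of all promoters 35.7% held them. Neither the ETS-type letters GGAAGT (23.8% of all promoters) nor the TATA box letters TATAAA (13.6%) were found in these 4, on either strand. In the other measured members with an entry, C5ar1 held GGAAGT 2 times, and C3ar1 held TATAAA 1 time and GGGCGG 1 time. Of the 9 genes, 7 matched an entry, and Cfi and Serping1 did not.

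Cr1l encodes Crry, a rodent membrane protein that acts as a cofactor for the cleavage of C3b and speeds the decay of the C3 convertase. It was measured at 8.96, 8.86 and 8.88 on replicates 1, 3 and 5. These values lay close together and far above the level on every array, with a mean of 8.90 ± 0.05, a 95% interval of 8.57 to 9.23 and an adjusted p of 0.00012 by limma. On the linear scale the mean corresponds to 477. Cr1l was called above 100 in every alternative run, including the level of 200.

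Cd55, decay-accelerating factor, dissociates the C3 and C5 convertases on the membrane. Its values were 5.44, 5.68 and 5.46, all under 100 and with replicate 3 slightly above the others. The mean was 5.53 ± 0.14 with a 95% interval of 5.16 to 5.89 (adjusted p = 0.00141 by limma), or 46.0 on the linear scale. Against the olfactory receptor level Cd55 was called above (adjusted p = 0.00976), so its signal stood between both references. Its paralog Cd55b, known mainly from testis, was at 2.73 ± 0.12 and was called below both.

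Cd46, membrane cofactor protein, is a cofactor for C3b cleavage that is widespread in human tissues and mostly limited to testis in the mouse. Its values were 4.85, 3.05 and 3.56 on replicates 1, 3 and 5. None exceeded the olfactory receptor level, and replicate 1, the highest, was equal to it. The mean of 3.82 ± 0.93 was called below 100 (adjusted p = 0.00269 by limma) and neither above nor below the olfactory receptor level (adjusted p = 0.0708). Its range of 1.80, or 3.49-fold, therefore lies wholly among signals that olfactory receptor probe sets also gave.

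Cd59a encodes the inhibitor that stops C9 from completing the membrane attack complex. It had 7.19, 5.41 and 7.69 on replicates 1, 3 and 5. Replicates 1 and 5 lay above 100 and replicate 3 below it, a range of 2.28 or 4.87-fold, the widest of the 8 genes. The mean of 6.76 ± 1.20 had a 95% interval from 5.37 to 8.15 and was called neither (adjusted p = 0.834 by limma). Without replicate 3 the mean was 7.44 and was called above (adjusted p = 0.0147), and without replicate 1 or 5 it was called neither. Against the olfactory receptor level Cd59a was called above (adjusted p = 0.025), but not without replicate 1 or without replicate 5. The paralog Cd59b, also known from testis, was below both references at 3.22 ± 0.08.

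Replicate 3 was also the lowest array for 8 of the 10 endothelial markers, and for 576 of the 1248 probe sets whose arrays differed by over 2-fold. Kdr, the VEGF receptor gene, had 10.83, 9.53 and 11.18, and the glomerular endothelial gene Ehd3 had 10.60, 9.51 and 11.00. The part of the lower endothelial signal on replicate 3 in the level of Cd59a was not tested. A lower number of endothelial cells, less RNA per cell and other causes cannot be told apart in the RNA of a whole sorted sample. Of 2243 other probe sets with 3 distinct values and a mean above 100, those nearest to Cd59a by Euclidean distance over the 3 centred values were Mgll at 0.08, Tspan14 at 0.11 and Rbm18 at 0.12. With only 3 arrays such nearness describes the arrays and no more.

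**Figure D2:**
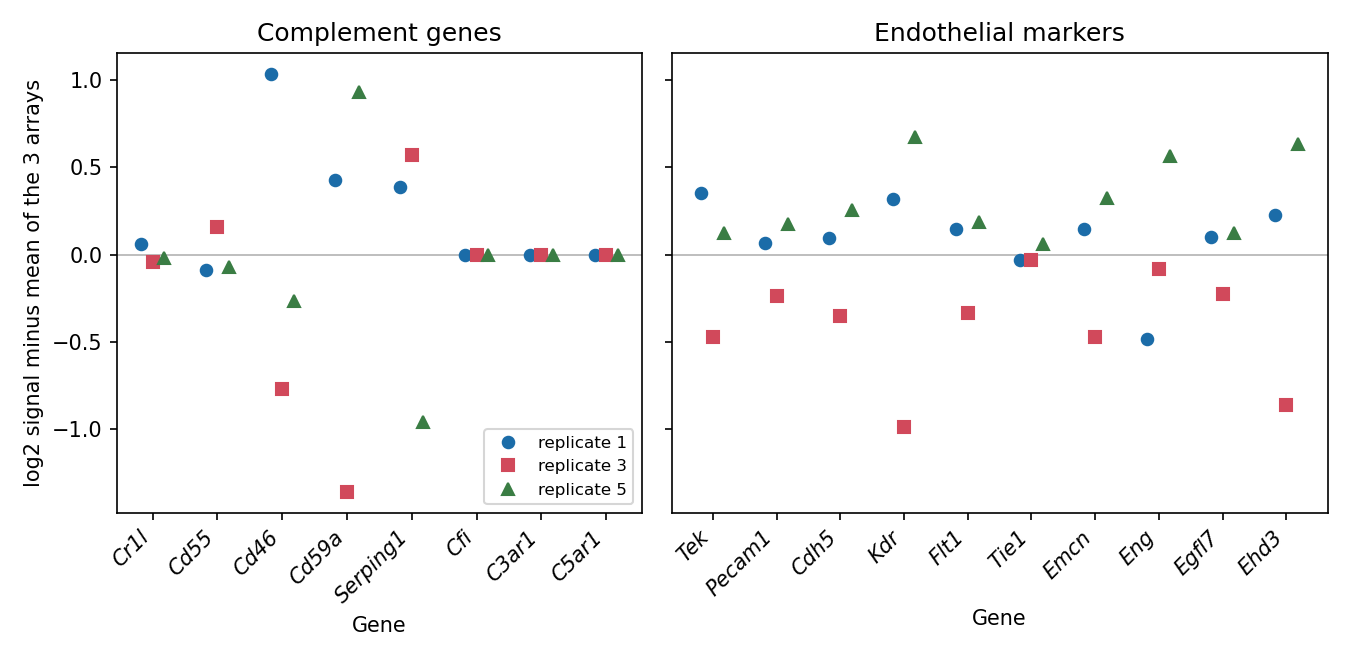
Deviation of each array from the gene's mean over 3 arrays (vertical axis, log2 signal) for the 8 complement genes (left) and the 10 endothelial markers (right), with 1 point per replicate. Replicate 3 is the lowest point of Cd59a and of 8 endothelial markers, while Serping1 is lowest on replicate 5 and highest on replicate 3.

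Serping1 encodes C1 inhibitor, the plasma serpin that inactivates C1r, C1s, the MASP proteases and kallikrein. Its values of 7.35, 7.53 and 6.001 were over 100 on replicates 1 and 3 and under it on replicate 5, a different array from that of Cd59a. The range was 1.52, or 2.88-fold. The mean of 6.96 ± 0.83 (95% interval 5.97 to 7.95) was called neither (adjusted p = 0.446 by limma). Without replicate 5 it rose to 7.44 and was called above (adjusted p = 0.0107), and without replicate 1 or 3 it was called neither. At a level of 50 the mean over all 3 arrays was called above (adjusted p = 0.0265), and so it was against the olfactory receptor level (adjusted p = 0.00653). Of the 10 endothelial markers, 9 were highest on replicate 5. The summed linear signal of the mesangial and smooth muscle markers was 211, 176 and 165 on replicates 1, 3 and 5, and that of the leukocyte markers 325, 290 and 304. The part of any of these lists in the level of Serping1 was not tested. All members of the mesangial and smooth muscle list and of the leukocyte list were called below 100. Within the mesangial and smooth muscle list Itga8 had the widest range, with 6.08, 4.94 and 4.75, while Acta2 and Myh11 had the same value on each array.

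Thus 3 of the 8 genes, Cd46, Cd59a and Serping1, differed by over 2-fold between arrays, whereas 5.73% of all probe sets did. However, 54.1% of all probe sets had the same value on the 3 arrays and so no range. Among the 4406 probe sets with 3 distinct values 25.9% ranged over 2-fold, and 5 of the complement genes were of this kind. With each array left out in turn, 2 of the 8 genes ranged over 2-fold, which falls by construction when fewer arrays are compared.

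Cfi encodes factor I, the plasma protease that cleaves C3b and C4b once a cofactor such as Crry is bound, and the liver is its known main source. Its probe set had 3.81 on each array and was called below both references (adjusted p = 7.56e-05 by limma against 100). C3ar1 and C5ar1 encode the receptors of the anaphylatoxins C3a and C5a, which are best known from myeloid cells. C3ar1 was at 3.94 on each array (adjusted p = 8e-05) and C5ar1 at 4.02 on each array (adjusted p = 8.42e-05), and both were called below the olfactory receptor level too (adjusted p = 0.00275 and 0.00361). Such identical values carry no measured spread, so these 3 calls rest on the spread of other probe sets. The value of C3ar1 was shared by 171 other probe sets with identical arrays and that of C5ar1 by 174, while that of Cfi was shared by 4. Of the leukocyte markers, Adgre1 and Csf1r were at 3.38 and 4.24 on each array and below the olfactory receptor level, while Cd14 at 5.71 ± 0.63, Cx3cr1 at 5.63 ± 0.04 and Cd68 at 5.29 ± 0.03 were above it. Signals at this level are not shown to differ from the background of the array, and silence of these genes is not shown either.

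Against the olfactory receptor level 4 of the 8 genes (Cr1l, Cd55, Cd59a and Serping1) were above, 3 (Cfi, C3ar1 and C5ar1) below and 1 (Cd46) neither, while 44.4% of all probe sets were called above it and 36.2% below. With the reference set at 5.54, which 99% of the olfactory receptor probe sets do not exceed, 2 were above, namely Cr1l and Serping1.

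Of 52 further complement genes in a list, 46 were measured, and 2 were called above 100, 42 below and 2 neither, with a median of 4.31, beside 15.8% above, 72.5% below and a median of 5.04 over all probe sets. Against the olfactory receptor level 8 were above, 26 below and 12 neither, beside 44.4% above and 36.2% below over all probe sets. Those above 100 were Thbd and C1qbp. Thbd encodes thrombomodulin, the endothelial receptor that turns thrombin toward activation of protein C and also limits complement, and had 9.42, 9.97 and 9.42, with a mean of 9.60 ± 0.32 (adjusted p = 0.00016 by limma). C1qbp, a mostly mitochondrial protein that binds the globular heads of C1q, had 7.38, 8.29 and 7.49, with a mean of 7.72 ± 0.50 (adjusted p = 0.0119). It was highest on replicate 3, and at a level of 200 it was no longer called above. Called neither were Cfb, the protease subunit of the alternative pathway convertase, at 6.65 on each array (adjusted p = 0.978), and Clu, the fluid-phase inhibitor clusterin, at 6.65 ± 0.34 (adjusted p = 0.961). Both were above at a level of 50.

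By pathway, all 9 measured genes of the classical pathway were below 100, where 72.5% of all probe sets also lay. The C1q chain genes C1qa and C1qc, products of macrophages, were at 5.33 ± 0.04 and 5.36. Both were called above the olfactory receptor level (adjusted p = 0.0213 and 0.0169 by limma). The third chain gene, C1qb, was at 4.69 ± 0.07 and was called neither there. C1ra, the C1r protease gene, had 4.85, 6.14 and 4.96, with replicate 3 apart from the others, and its mean of 5.32 ± 0.72 was called below (adjusted p = 0.016 by limma). With the prior over all probe sets it was called neither (adjusted p = 0.0526), which left 8 of the 9 below. It was the only further complement gene whose arrays differed by over 2-fold. All 9 genes of the lectin pathway were below, from 4.13 to 5.36, and so were all 7 of the terminal pathway, from 2.95 to 4.85. In the alternative pathway Cfp, which encodes properdin, was below at 5.27. Among receptors the 6 besides C1qbp were below, and of 12 other regulators 10 were below, including the plasma cofactor gene C4bp at 3.63 on each array.

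**Figure D3:**
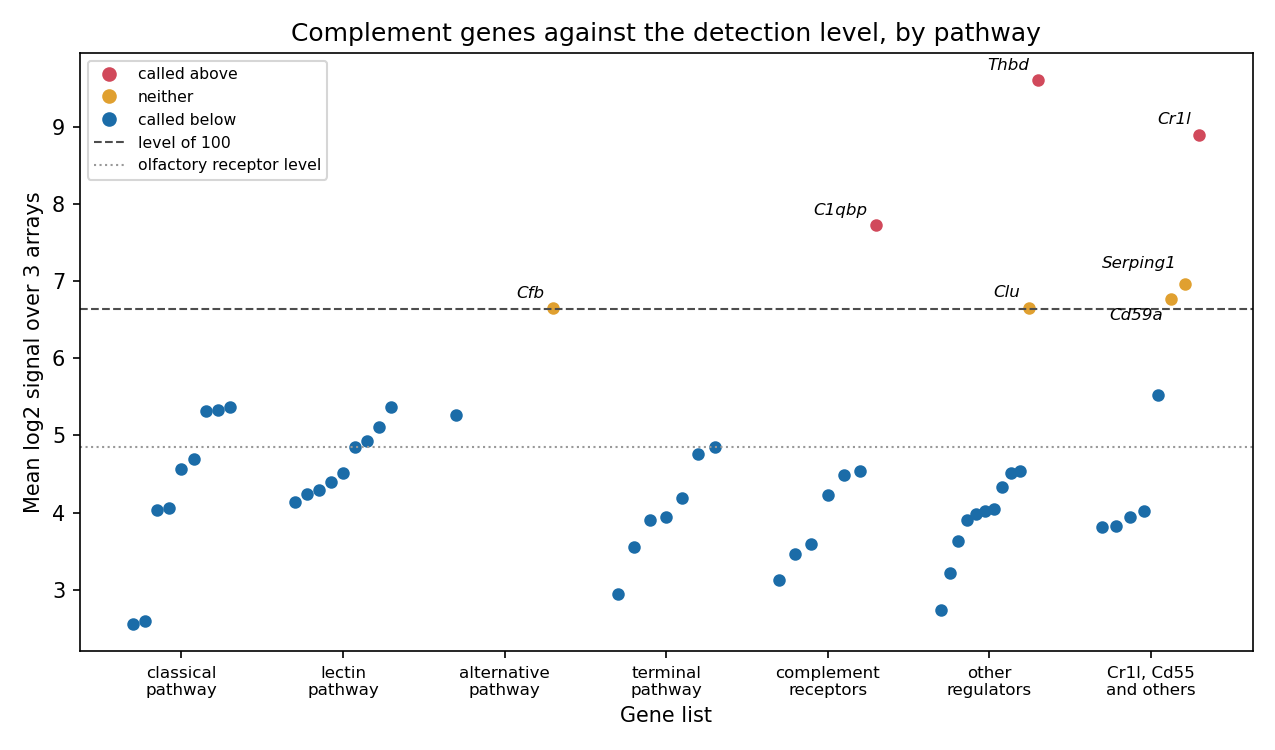
Mean log2 signal over 3 arrays (vertical axis) of the measured complement genes by list (horizontal axis), 1 point per gene, coloured by limma's call against 100 (dashed line); the dotted line is the olfactory receptor level. Thbd, Cr1l and C1qbp are above the dashed line, Cfb, Clu, Cd59a and Serping1 are called neither, and all other points lie below it.

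Genes linked to thrombotic microangiopathy were taken as a last list. Of 10, 8 were measured, with 1 above (Thbd), 1 neither (Cfb) and 6 below, shares near those of the whole array. Besides Cd46 and Cfi those below were Vwf, which encodes von Willebrand factor, at 5.33 ± 0.11, Adamts13, the protease that trims it, at 4.55, Dgke, a lipid kinase of endothelium and podocytes, at 4.58 ± 0.02, and Mmachc, a gene of cobalamin metabolism, at 5.41 ± 0.29. Vwf and Mmachc were above the olfactory receptor level, and Adamts13 and Dgke were called neither there.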

How the data were processed

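RNA of sorted cells was amplified in 1 round and hybridised to 3 arrays. The authors deposited log2 signals per probe set, and Affymetrix Expression Console (version not given) is named in the submitters' processing notes. The study describes the array data of its own analysis as RMA normalized. The set of arrays that entered the normalization is not stated, and values may sit on another scale than the raw signals to which the study's filter applied. Medians over 35557 probe sets were 4.85, 4.80 and 4.79 on replicates 1, 3 and 5. The number of arrays limits the precision. Platform annotation named 1 gene for 21789 probe sets, several for 1621 and none for 12147, and 21698 of the first matched the RefSeq annotation of GRCm38.p6 by Entrez identifier. The highest mean stood for a gene in lists.

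limma 3.58.1 (R 4.3.3) was fitted with an intercept and tested two-sided against 100 at an adjusted p of 0.05. Because tied values (within 1e-09) give variances of 0, the variance prior was estimated on the 4406 probe sets whose values all differ, which gave an SD of 0.288 on 2.03 degrees of freedom. The fits were tested on simulated data. Some simulated probe sets placed at 100 were still called above or below it, and more of them with a prior over all probe sets. Calls of means close to 100 are therefore less certain. The alternatives were a prior over all probe sets, levels of 50 and 200, only probe sets with a mean above 5, centred arrays, a second quantile normalization, and each array left out. Genes named beyond the 8 are further complement genes called above or neither or ranging over 2-fold, the microangiopathy list, the first 2 markers of each list, and others that illustrate a list and were picked after their values were seen. The members and lists were chosen with earlier results of these data known. C3 and some other listed genes are not reported here.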

Additional observations from a re-analysis of the deposited data

How the results depend on the processing

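The calls of Cr1l above 100 and of Cd46, Cfi, C3ar1 and C5ar1 below it were kept in every alternative in which the gene was tested. The call of Cd55 was lost at a level of 50, where it was neither (adjusted p = 0.436 by limma). The number of the 8 complement genes above 100 was 2 at a level of 50, with Serping1 added, and it ranged from 1 to 2 when each array was left out, with Cd59a added without replicate 3 and Serping1 without replicate 5. Of the further complement genes, 4 were above at a level of 50 and 1 at a level of 200. With only probe sets of a mean above 5, 4 of the 8 genes remained in the fit by construction, and 1 of the 8 and 6 of the further genes were called below. With the olfactory receptor reference at 99% rather than 95%, 2 of the 8 were above it, and with the prior from all probe sets 3 were above the 95% reference, where Cd59a was lost. Of 49 counts recomputed, 41 stayed within 1.5 times the first value. Of 68 levels of single genes, 64 kept their call of above, below or neither, though a mean called neither could change side. Centring and a second quantile normalization changed no call of the 8 genes. No paired analysis was possible because all arrays form 1 group. Depth is not defined for arrays, and genes under the olfactory receptor level cannot be told from background.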
